A study of Mus musculus with 4 samples.

Results

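The 37 genes described here cover the synthesis of cholesterol and of fatty acids, the sensing of sterols, and the export of cholesterol from the cell. They were taken by name from a list of pathway genes, whose rule names no measured value but which was drawn up with earlier results of these data known, and all 37 were found among the 21937 genes counted. The list holds 18 genes of sterol enzymes, 6 of sterol sensing and transport, 3 of fatty acid synthesis, 7 of fatty acid desaturation and elongation, and 3 of sterol efflux with its nuclear receptor. Of the 37, 34 averaged at least 2 CPM (read counts after scaling each library to the same size) over the libraries, and Hmgcs1, Scd1 and Fads2 did not.

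RNA was sequenced from CD4+ T cells of the spleens of B6 mice 6 weeks old, stimulated with phorbol 12-myristate 13-acetate (PMA) and ionomycin, which together mimic signalling from the T cell receptor. Each of 4 genotypes gave 1 library: a library labelled DKO (Itch and WWP2), which has lost both ubiquitin ligases according to its label; Itchf/f Cd4cre, called Itch KO here; WWP2-/-, called WWP2 KO here; and wild type. The plots name the library labelled DKO as labelled double KO. The ligases belong to the NEDD4 family, whose role in activation of these cells is the subject of the study. Cre driven by Cd4 acts in developing T cells, including those that later become CD8+ cells, so Itch deletion is not limited to CD4+ cells, while WWP2-/- describes loss in the whole animal. The duration of the stimulation and the number of mice per library are not given in the sources that were used.

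The libraries held 17990392 counts in the library labelled DKO, 17640778 in Itch KO and 17130747 in WWP2 KO, against 17627531 in wild type. With 1 library per genotype no spread between replicates exists, so no p-value is given, and each call compares 2 libraries rather than 2 genotypes. Wwp2 had 1135 reads in the library labelled DKO, 1332 in Itch KO and 4 in WWP2 KO, against 1363 in wild type, so the library labelled DKO goes against its label for that gene, and every direction drawn from it below carries this doubt. Itch had 2389 reads in the library labelled DKO, 1914 in Itch KO and 1996 in WWP2 KO, against 2083 in wild type. A gene count that includes undeleted exons need not fall in a floxed allele, and which exons were deleted is not given, so the Itch count checks no label. All 10 T cell markers had reads in every library, with a summed level of 3166 to 3433 CPM, but not each was level: Cd4 had 9441 reads in the library labelled DKO, against 4069 in wild type, and Cd5 had 5484, against 12091. By the 2-fold rule defined below, 2 of the 10 were higher there (background 12.3% of all genes tested) and 1 lower (6.34%). Cd3g was the other higher one. Among markers of other cells, Cd8b1 had 267 reads in Itch KO, against 127 in wild type, Kit had 85 in the library labelled DKO, against 429 in wild type, and Klrb1c had 12, against 88. The part of these shifts in the results was not tested. The macrophage list summed to 0.758 to 1.83 CPM with Fcgr1 and C1qa at 0, and the adipocyte list to 0 to 0.108 CPM with Plin1 at 0.

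Cells make cholesterol from acetyl-CoA by way of mevalonate, the isoprenoid units and squalene. The sterol regulatory element binding proteins SREBP1 and SREBP2, encoded by Srebf1 and Srebf2, switch on the genes of this pathway and of fatty acid synthesis. SCAP escorts them out of the endoplasmic reticulum when membrane sterol is low, and INSIG proteins hold them back when it is high. The liver X receptors (LXRs) respond to oxysterols instead, and raise cholesterol export through ABCA1 and ABCG1. T cells turn on SREBP-driven lipid synthesis when activated, since a dividing cell must build new membrane.

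A gene was called at least 2-fold different between 2 libraries when its log2 ratio reached 1 in size, with a prior count of 2 added, and when the 95% interval of its fold excluded 1. The interval is the exact conditional binomial one and covers counting error only. By this rule 5 of the 34 genes were higher in the library labelled DKO than in wild type, against a background of 12.3% of the 9926 genes tested, and 0 were lower, against a background of 6.34%. The 5 were Scd2, Elovl6, Abca1, Abcg1 and Pmvk. With Itch KO set against wild type 0 of 34 were higher (background 4.89%) and 0 lower (0.846%). With WWP2 KO set against wild type 0 were higher (0.282%) and 0 lower (0.161%). The share of 5 in 34 is near that of all genes, so the count of calls does not set these genes apart, and the values below are given step by step.

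**Figure D1:**
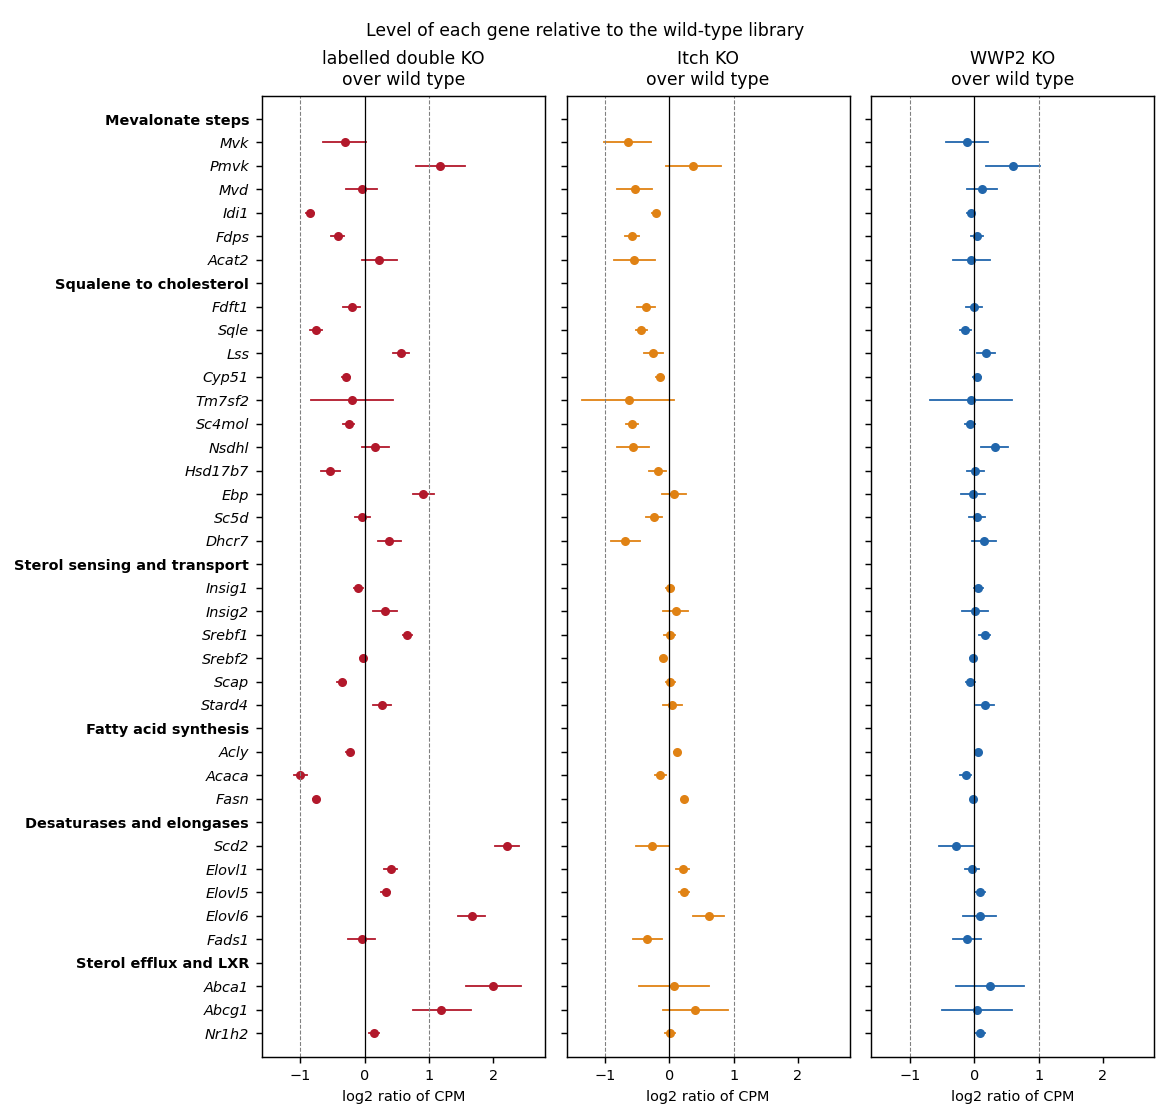
Log2 ratio of CPM to the wild-type library (x axis, drawn without a prior count) for each of the 34 tested genes, ordered down the page by role, with 1 panel each for the library labelled DKO, Itch KO and WWP2 KO. Bars are 95% counting intervals; the sterol enzymes lie mostly below 0 in Itch KO, with a median of -0.44, while in the library labelled DKO Scd2 reaches 2.21 and Acaca -1.0.

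The sterol enzymes were lower in Itch KO, relative to wild type, at almost every step. Of the 17 tested, 15 had a log2 ratio below 0, with a median of -0.44, against a median of -0.02 and 53.9% below 0 over all 9926 genes. The counting interval lay below 1 for 14 of them and above 1 for 0. Over all 34 genes 18 were lower by that looser rule, which asks for no minimum size, against a background of 28.4%, and 5 were higher, against 25.8%. Genes with many reads pass it at smaller ratios. At a threshold of 1.5-fold, Mvk and Dhcr7 fell, so 2 of 34 genes were lower (background 4.39%), and Elovl6 alone rose, so 1 of 34 was higher (background 8.79%). Most steps were therefore lower by less than 1.5-fold. Scaling by DESeq2 size factors or by total counts left 14 of the 17 lower.

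Hmgcs1, the synthase that starts the route to mevalonate, was listed at 0 reads in all 4 libraries. A count of 0 allows up to 0.161 CPM in the library labelled DKO, 0.173 CPM in Itch KO and 0.175 CPM in WWP2 KO, against 0.173 CPM in wild type, from 3 counts each. The neighbouring steps all had reads, and whether the annotation used for counting lost this gene was not tested. Acat2, whose product joins a pair of acetyl-CoA molecules, had 260 reads in the library labelled DKO, 142 in Itch KO and 198 in WWP2 KO, against 207 in wild type. Itch KO was the lowest of the 4 for Acat2, at a fold of 0.686 to wild type (0.550 to 0.853).

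Mvk encodes mevalonate kinase, the first of a run of phosphorylations. It had 143 reads in the library labelled DKO, 105 in Itch KO and 151 in WWP2 KO, against 165 in wild type, and its fold in Itch KO over wild type was 0.636 (0.493 to 0.817). Pmvk, the next kinase, had 199 reads in the library labelled DKO, 106 in Itch KO and 123 in WWP2 KO, against 82 in wild type. Wild type was the lowest of the 4 for Pmvk, unlike for the genes on either side of it in the pathway. Pmvk rose 2.26-fold in the library labelled DKO over wild type (1.74 to 2.96) and 1.52-fold in WWP2 KO over wild type (1.14 to 2.03). It was the 1 gene of 34 higher by at least 1.5-fold in WWP2 KO (background 1.19%), where 0 were lower (background 0.756%). With DESeq2 size factors, or at a mean of at least 10 CPM, 0 genes were higher there.

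Mvd, the decarboxylase that yields isopentenyl pyrophosphate, had 296 reads in the library labelled DKO, 196 in Itch KO and 306 in WWP2 KO, against 285 in wild type. Here Itch KO stood apart, with a fold of 0.687 to wild type (0.570 to 0.827), and the other libraries lay close together. Idi1, the isomerase of the isoprenoid unit, had 2920 reads in the library labelled DKO, 4227 in Itch KO and 4661 in WWP2 KO, against 4909 in wild type. It fell in the library labelled DKO to 0.555 of wild type (0.530 to 0.581). Fdps, which joins isoprenoid units into farnesyl pyrophosphate, had 1378 reads in the library labelled DKO, 1154 in Itch KO and 1748 in WWP2 KO, against 1721 in wild type. Both libraries that carry the Itch label were below the others for Fdps, at folds to wild type of 0.747 in the library labelled DKO (0.695 to 0.802) and 0.670 in Itch KO (0.622 to 0.723). In GENCODE M21, 77.4% of the exonic bases of Fdps are shared with the gene model Gm43738 on the same strand. Reads from the shared bases may not have been counted for Fdps if the annotation used for counting, which is not given, held that model.

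**Figure D2:**
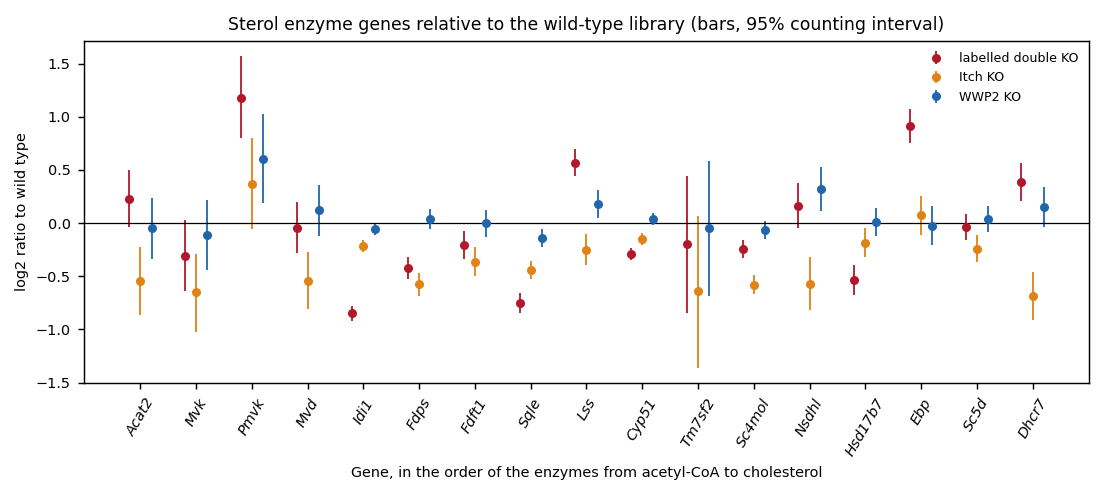
Log2 ratio of CPM to the wild-type library (y axis, drawn without a prior count) for the 17 tested sterol enzyme genes in the order of their enzymes from acetyl-CoA to cholesterol (x axis), for the library labelled DKO, Itch KO and WWP2 KO, with 95% counting intervals. Itch KO runs below 0 at all tested steps but Pmvk (0.37) and Ebp (0.07), and the library labelled DKO swings between Pmvk at 1.18 and Idi1 at -0.85.

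From squalene on, the counting interval in the library labelled DKO over wild type lay above 1 for 3 of 11 steps (background 37.3%). It lay below 1 for 5 (background 40.6%) and included 1 for the rest. Fdft1, squalene synthase, had 916 reads in the library labelled DKO, 765 in Itch KO and 971 in WWP2 KO, against 984 in wild type. Its exonic bases overlap Ctsb on the opposite strand by 20.9%, and without a stated strand setting reads of the pair cannot be told apart. Sqle, the epoxidase that is a second control point of the pathway, had 1623 reads in the library labelled DKO, 1881 in Itch KO and 2287 in WWP2 KO, against 2551 in wild type. Sqle fell in the library labelled DKO to 0.594 of wild type (0.557 to 0.632) and lay between them in Itch KO, at 0.737 (0.694 to 0.783). Lss, which closes the rings to form lanosterol, ran the other way.

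Lss had 1340 reads in the library labelled DKO, 708 in Itch KO and 944 in WWP2 KO, against 843 in wild type. Its fold over wild type was 1.48 in the library labelled DKO (1.36 to 1.62) and 0.840 in Itch KO (0.759 to 0.929), on either side of 1. Cyp51, the lanosterol demethylase, had 4497 reads in the library labelled DKO, 4627 in Itch KO and 5219 in WWP2 KO, against 5128 in wild type, a narrow range. Tm7sf2, a sterol reductase, had few reads, with 42 in the library labelled DKO, 29 in Itch KO and 43 in WWP2 KO, against 45 in wild type. Every interval of Tm7sf2 against wild type includes 1.

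Demethylation at a further carbon of lanosterol uses Sc4mol, Nsdhl and Hsd17b7. Sc4mol, a methylsterol oxidase, had 2153 reads in the library labelled DKO, 1595 in Itch KO and 2246 in WWP2 KO, against 2382 in wild type, and its fold in Itch KO was 0.669 (0.628 to 0.713). Nsdhl, a sterol dehydrogenase, had 406 reads in the library labelled DKO, 228 in Itch KO and 417 in WWP2 KO, against 338 in wild type, and its fold in Itch KO was 0.674 (0.568 to 0.80). Hsd17b7, a sterol ketoreductase, had 690 reads in the library labelled DKO, 820 in Itch KO and 929 in WWP2 KO, against 932 in wild type. For Sc4mol and Nsdhl the lowest library was Itch KO, whereas Hsd17b7 was lowest in the library labelled DKO, at 0.691 of wild type (0.625 to 0.763).

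Ebp, the sterol isomerase, had 980 reads in the library labelled DKO, 511 in Itch KO and 473 in WWP2 KO, against 486 in wild type. It rose 1.88-fold in the library labelled DKO over wild type (1.69 to 2.10), while the intervals of Itch KO and WWP2 KO to wild type include 1. Sc5d, a desaturase of the sterol ring, had 1124 reads in the library labelled DKO, 909 in Itch KO and 1088 in WWP2 KO, against 1074 in wild type. Dhcr7, which performs the last reduction to cholesterol in one branch of the pathway, had 615 reads in the library labelled DKO, 273 in Itch KO and 483 in WWP2 KO, against 439 in wild type. Dhcr7 had the lowest ratio of all tested genes of the list in Itch KO over wild type, at a fold of 0.622 (0.532 to 0.725), and its fold was 1.31 in the library labelled DKO over wild type (1.15 to 1.48).

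Taken as a sum, the 18 sterol enzymes came to 1054 CPM in the library labelled DKO, 1054 CPM in Itch KO and 1300 CPM in WWP2 KO, against 1302 CPM in wild type. The near-equal sums of the library labelled DKO and Itch KO came from different members: Idi1 had 157 CPM in the library labelled DKO and 244 CPM in Itch KO, against 283 CPM in wild type, whereas Sc4mol had 116 CPM in the library labelled DKO and 92.0 CPM in Itch KO, against 137 CPM in wild type. Of the 17 tested in the library labelled DKO over wild type, the counting interval lay above 1 for 4 (background 37.3%) and below 1 for 7 (background 40.6%), with a median log2 ratio of -0.19. Total-count scaling turned the 4 into 6. In WWP2 KO over wild type 3 lay above (background 14.5%) and 2 below (background 17.6%), with a median of 0.01, and total-count scaling gave 4 above and 1 below. Neither comparison sets the sterol enzymes apart by these counts.

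Promoter sequences are shown for the sterol steps that moved most in opposite directions in the library labelled DKO, Pmvk and Ebp as the highest and Idi1 and Hsd17b7 as the lowest ratios to wild type among those with a sequence. Each is the 250 bases before the outermost annotated start in RefSeq, build GRCm38.p6, 5′ to 3′ on the gene's strand. The 4 regions are chr3:89454291-89454540 on the plus strand for Pmvk, chrX:8193513-8193762 on the minus strand for Ebp, chr13:8885356-8885605 on the plus strand for Idi1, and chr1:169969206-169969455 on the minus strand for Hsd17b7. Capitals mark matches, on either strand, to the NF-Y box CCAAT, the GC box GGGCGG and the E-box CACGTG, and no matches overlap in these stretches.
Pmvk: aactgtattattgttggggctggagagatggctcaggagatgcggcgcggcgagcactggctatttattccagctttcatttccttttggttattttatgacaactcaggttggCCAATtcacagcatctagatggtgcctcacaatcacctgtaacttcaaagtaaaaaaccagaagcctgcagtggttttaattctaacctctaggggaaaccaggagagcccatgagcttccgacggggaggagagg
Ebp: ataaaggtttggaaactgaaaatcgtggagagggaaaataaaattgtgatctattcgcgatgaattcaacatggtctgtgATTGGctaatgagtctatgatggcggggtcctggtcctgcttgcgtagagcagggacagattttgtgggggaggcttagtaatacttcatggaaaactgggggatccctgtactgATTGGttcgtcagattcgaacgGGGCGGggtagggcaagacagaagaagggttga
Idi1: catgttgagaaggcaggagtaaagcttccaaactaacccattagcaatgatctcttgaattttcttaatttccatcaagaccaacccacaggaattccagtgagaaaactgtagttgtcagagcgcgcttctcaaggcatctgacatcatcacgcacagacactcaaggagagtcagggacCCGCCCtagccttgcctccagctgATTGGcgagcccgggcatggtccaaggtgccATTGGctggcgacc
Hsd17b7: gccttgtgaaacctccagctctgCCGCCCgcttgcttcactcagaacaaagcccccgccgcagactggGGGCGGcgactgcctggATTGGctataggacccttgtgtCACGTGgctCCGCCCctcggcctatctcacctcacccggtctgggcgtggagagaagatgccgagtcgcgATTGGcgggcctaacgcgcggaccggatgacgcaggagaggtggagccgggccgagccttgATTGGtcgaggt

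NF-Y and SP1, which bind the CCAAT and GC boxes, are known partners of SREBPs at sterol genes. Over windows of 300 bases (250 before the start and 50 after it), CCAAT was found in 13 of the 15 sterol enzymes with a window, or 86.7%, in 57.1% of the other 14 genes of the list with one, and in 38.0% of all 27025 windows. GGGCGG was found in 93.3% of the sterol enzymes, in 50% of the other 14 genes and in 35.9% of all windows. TCACNCCAC, a form of the sterol regulatory element, was found in Hmgcs1 alone among the 15, against 1.22% of all windows. CACGTG was found in 2 of the 15 sterol enzymes, or 13.3%, against 7.24% of all windows. Its share was higher in the other 14 genes, at 28.6%. Both the genes with the highest ratios and those with the lowest hold a CCAAT box, with 1 in Pmvk, 2 in Ebp, 2 in Idi1 and 3 in Hsd17b7. A window is available for 29 of the 37 genes, and a match is a description of letters. The 27025 windows were not limited to genes expressed here, so these shares do not compare the sterol enzymes with expressed genes alone.

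Of the 6 genes of sterol sensing and transport, 0 passed the 2-fold rule in any comparison with wild type. The background was at most 12.3% higher and 6.34% lower, in the library labelled DKO, so 0 of 6 does not set these genes apart. Srebf1 alone passed at 1.5-fold, being higher in the library labelled DKO (background 20.5%). Srebf2, whose product drives the sterol genes, had 396 CPM in the library labelled DKO, 375 CPM in Itch KO and 399 CPM in WWP2 KO, against 403 CPM in wild type. All its log2 ratios to wild type lay between -0.10 and -0.02, and its direction in the library labelled DKO over wild type depended on the scaling (-0.03 by TMM, 0.04 by total counts). Insig1, itself a target of SREBPs that holds them in the endoplasmic reticulum, had 209 CPM in the library labelled DKO, 225 CPM in Itch KO and 233 CPM in WWP2 KO, against 223 CPM in wild type. Insig1 did not share the lower level of the sterol enzymes in Itch KO, with a fold of 1.01 (0.964 to 1.05).

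Srebf1, the regulator with more weight on fatty acid genes, had 205 CPM in the library labelled DKO, 130 CPM in Itch KO and 145 CPM in WWP2 KO, against 129 CPM in wild type. It rose 1.59-fold in the library labelled DKO over wild type (1.51 to 1.67), and the counts do not separate its isoforms. Scap, the escort protein, had 147 CPM in the library labelled DKO, 191 CPM in Itch KO and 181 CPM in WWP2 KO, against 189 CPM in wild type. Its fold in the library labelled DKO was 0.779 (0.741 to 0.820), opposite to that of Srebf1, and 18.6% of its exonic bases lie under the gene model 5830462I19Rik on the opposite strand.

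Insig2, a second INSIG, had 29.4 CPM in the library labelled DKO, 25.2 CPM in Itch KO and 23.8 CPM in WWP2 KO, against 23.6 CPM in wild type. Stard4, a cytosolic carrier of cholesterol, had 52.1 CPM in the library labelled DKO, 44.5 CPM in Itch KO and 48.5 CPM in WWP2 KO, against 43.2 CPM in wild type. Both were highest in the library labelled DKO, at folds over wild type of 1.25 (1.10 to 1.42) for Insig2 and 1.21 (1.09 to 1.33) for Stard4.

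Fatty acid synthesis was lower in the library labelled DKO at all 3 of its steps, by any of the 3 scalings used. Acly, which makes cytosolic acetyl-CoA from citrate, had 330 CPM in the library labelled DKO, 422 CPM in Itch KO and 403 CPM in WWP2 KO, against 388 CPM in wild type. Acaca, acetyl-CoA carboxylase, the committed step, had 60.5 CPM in the library labelled DKO, 110 CPM in Itch KO and 110 CPM in WWP2 KO, against 121 CPM in wild type. Fasn, the fatty acid synthase, had 390 CPM in the library labelled DKO, 769 CPM in Itch KO and 649 CPM in WWP2 KO, against 658 CPM in wild type. For each of the 3 genes the library labelled DKO lay below the rest.

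Acaca fell in the library labelled DKO to 0.50 of wild type (0.465 to 0.538), with a log2 ratio just short of the 2-fold rule under TMM scaling. Fasn fell there to 0.592 of wild type (0.575 to 0.610) and to 0.507 of Itch KO (0.492 to 0.521). Acly had a fold of 0.850 to wild type (0.821 to 0.880). In Itch KO over wild type Fasn was 1.17-fold higher (1.14 to 1.20) and Acly 1.09-fold higher (1.05 to 1.12), while Acaca was lower, at a fold of 0.907 (0.852 to 0.966). Including Idi1 and Sqle, 4 of the 34 genes were lower by at least 1.5-fold in the library labelled DKO than in wild type, against a background of 17.5%. With Ebp and Srebf1 added to the 5 named above, 7 were higher, against a background of 20.5%.

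**Figure D3:**
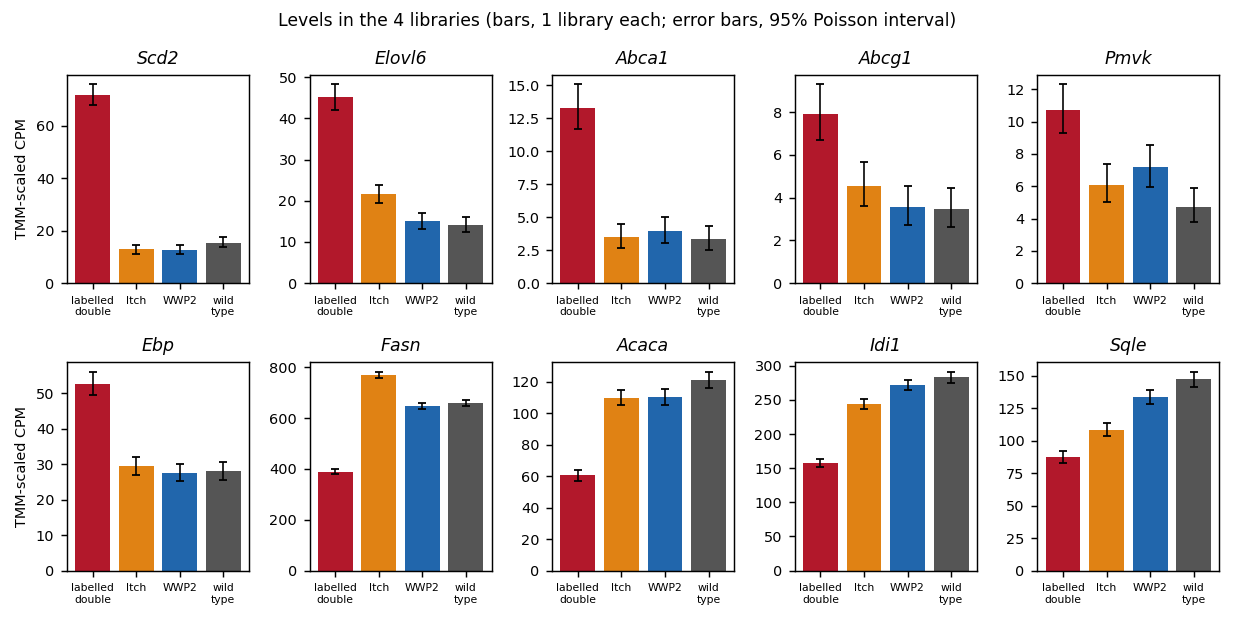
TMM-scaled CPM (y axis, from 0) of selected genes in the library labelled DKO, Itch KO, WWP2 KO and wild type, as bars of 1 library each with the 95% Poisson interval of the count. Scd2 stands at 71.9 CPM in the library labelled DKO and at 12.8 to 15.5 CPM elsewhere, while Fasn is lowest there at 390 CPM.

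Scd2 encodes a stearoyl-CoA desaturase, which puts the double bond into newly made saturated fatty acids. It had 1336 reads in the library labelled DKO, 224 in Itch KO and 219 in WWP2 KO, against 269 in wild type. Scd2 rose 4.63-fold in the library labelled DKO over wild type (4.06 to 5.30), the highest ratio of the 34 genes, while the other 3 libraries lay between 12.8 and 15.5 CPM. Per kilobase of exon its level was 13.2 CPM in the library labelled DKO and 2.84 CPM in wild type. Scd1, its paralogue and the main form in mouse liver, had 2 reads in the library labelled DKO, 25 in Itch KO and 0 in WWP2 KO, against 2 in wild type. How reads that match both paralogues were counted is not given, and they could be lost, so the split between Scd1 and Scd2 is uncertain.

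Elovl6 lengthens palmitate to stearate. It had 837 reads in the library labelled DKO, 375 in Itch KO and 258 in WWP2 KO, against 246 in wild type. Elovl6 rose 3.17-fold in the library labelled DKO over wild type (2.75 to 3.67) and 1.52-fold in Itch KO over wild type (1.29 to 1.80), the same direction at unequal size. Elovl6 and Scd2, which act on the product of Fasn, were both higher in the library in which Fasn was lower.

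The other elongases and desaturases moved less. Elovl5, which lengthens polyunsaturated chains, had 181 CPM in the library labelled DKO, 169 CPM in Itch KO and 154 CPM in WWP2 KO, against 144 CPM in wild type, with a fold of 1.25 in the library labelled DKO over wild type (1.19 to 1.32). Elovl1, which makes very long chains, had 105 CPM in the library labelled DKO, 91.1 CPM in Itch KO and 77.1 CPM in WWP2 KO, against 79.1 CPM in wild type, with a fold of 1.32 there (1.24 to 1.42). Elovl1 shares 2.73% of its exonic bases with Cdc20, a cell cycle gene on the opposite strand, and the strand setting of the counts is not given. Fads1, a desaturase of polyunsaturated fatty acids, had 21.1 CPM in the library labelled DKO, 17.2 CPM in Itch KO and 20.2 CPM in WWP2 KO, against 21.8 CPM in wild type. Fads2, its partner, had 2 reads in the library labelled DKO, 3 in Itch KO, and 0 in both WWP2 KO and wild type, too few to compare.

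The pumps that export cholesterol were expressed at low levels and were higher in the library labelled DKO. Abca1, the pump that loads cholesterol onto lipid-poor apolipoprotein, had 247 reads in the library labelled DKO, 61 in Itch KO and 68 in WWP2 KO, against 58 in wild type. Abcg1, which exports cholesterol to lipoprotein particles, had 147 reads in the library labelled DKO, 79 in Itch KO and 61 in WWP2 KO, against 60 in wild type. Nr1h2, encoding LXR beta, the LXR of lymphocytes, had 2759 reads in the library labelled DKO, 2342 in Itch KO and 2447 in WWP2 KO, against 2325 in wild type. The pumps differed most in the library labelled DKO, and the receptor was nearly level.

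Abca1 rose 3.97-fold in the library labelled DKO over wild type (2.97 to 5.38), and Abcg1 2.29-fold (1.68 to 3.14). Nr1h2 had a fold of 1.11 (1.05 to 1.17). Macrophages express both pumps at high levels, and the macrophage marker list summed to 1.83 CPM in the library labelled DKO, 1.27 CPM in Itch KO and 0.758 CPM in WWP2 KO, against 1.38 CPM in wild type, with 3 to 7 of its 10 genes having a read. The dendritic cell list, mostly reads of Xcr1 and Zbtb46 and with 3 to 6 of its 6 genes having a read, summed to 23.2 CPM in the library labelled DKO, 15.8 CPM in Itch KO and 5.37 CPM in WWP2 KO, against 8.13 CPM in wild type, with Flt3, Siglech and Clec9a at 0 in the library labelled DKO. Its part in these results was not tested. In bulk RNA a change in the share of cells and a change in RNA per cell cannot be told apart.

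Per kilobase of exon, the wild-type library expressed the sterol and fatty acid genes over a wide range. Idi1 led the list at 93.5 CPM per kb, followed by Acly at 84.2, Insig1 at 82.8, Srebf2 at 79.5 and Cyp51 at 75.2 CPM per kb. Insig1, Srebf2 and Cyp51 stand close together in that order, and with 1 library no spread between animals tells neighbours apart. The efflux pumps were near the bottom, with Abcg1 at 0.507 and Abca1 at 0.326 CPM per kb. In the library labelled DKO the pumps stood at 1.16 CPM per kb for Abcg1 and 1.30 CPM per kb for Abca1, near Tm7sf2 at 1.33 CPM per kb.

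Set directly against Itch KO, the library labelled DKO had 4 of the 34 genes at least 2-fold higher (background 9.18%) and 0 lower (background 5.16%). The 4 were Scd2 at 5.57-fold (4.83 to 6.44), Abca1 at 3.78-fold (2.84 to 5.09), Dhcr7 at 2.10-fold (1.82 to 2.43) and Elovl6 at 2.08-fold (1.84 to 2.36). By the counting interval alone 23 were higher (background 39.7%) and 9 lower (background 36.2%). Among the 17 sterol enzymes the interval lay above 1 for 11 and below 1 for 4, with a median log2 ratio of 0.34 against 0.03 over all genes. The 4 lower sterol enzymes were Idi1, Sqle, Cyp51 and Hsd17b7. This comparison shares the Itch KO library with that of Itch KO over wild type, so the directions of the pair are not independent.

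Against WWP2 KO, 4 genes were higher by at least 2-fold in the library labelled DKO (background 11.6%) and 0 lower (background 6.05%). They were Scd2 at 5.63-fold (4.87 to 6.52), Abca1 at 3.35-fold (2.55 to 4.45), Elovl6 at 2.99-fold (2.60 to 3.45) and Abcg1 at 2.22-fold (1.64 to 3.05). Pmvk, the fifth gene called against wild type, had a fold of 1.49 here (1.19 to 1.88).

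**Figure D4:**
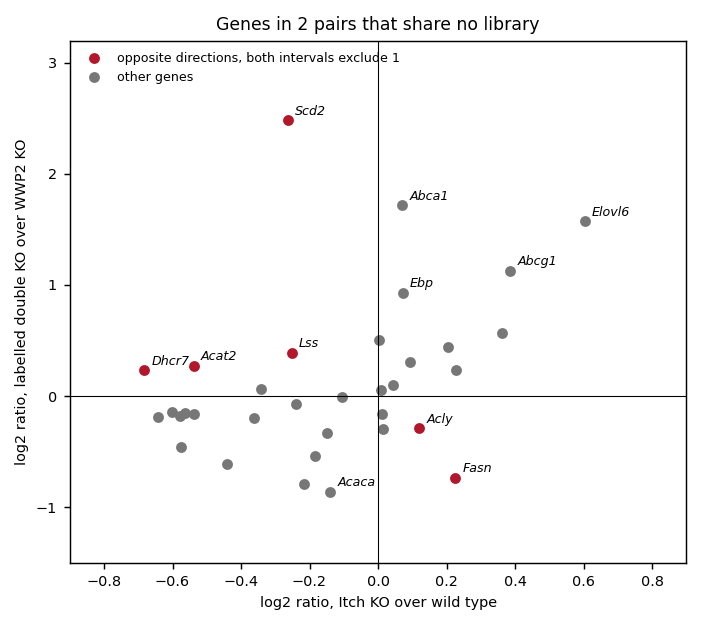
Log2 ratio of the library labelled DKO over WWP2 KO (y axis) against that of Itch KO over wild type (x axis), 1 point per tested gene, for 2 pairs that share no library. Scd2 lies at 2.48 on the y axis and -0.26 on the x axis, and Fasn at -0.74 and 0.22.

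By label, these 2 pairs each differ by loss of Itch, in cells without and with Wwp2, although Wwp2 had 1135 reads in the library labelled DKO, against 4 in WWP2 KO. Across the 34 genes their ratios had a Pearson r of 0.365 and a Spearman rho of 0.355, given as a description because genes of 1 library share its depth and cells. Elovl6 was higher in both pairs, while Idi1, Sqle, Fdps and Sc4mol were lower in both.

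The related genes below come from lists written with earlier results of these data known, and no count of them is independent support. In the list of further sterol synthesis and SREBP processing genes, 0 of 12 tested passed the 2-fold rule in any of the 3 comparisons with wild type. The background was at most 12.3% higher and 6.34% lower, in the library labelled DKO. In Itch KO over wild type the median log2 ratio of this list was -0.08, against -0.44 for the sterol enzymes. The counting interval lay above 1 for 3 of the 12 (background 25.8%) and below 1 for 2 (28.4%). For the 17 sterol enzymes it lay above 1 for 0 and below 1 for 14, so the list as a whole did not share their lower level. In the list of isoprenoid and protein prenylation genes 0 of 12 rose in the library labelled DKO over wild type (background 12.3%). There 1 of 12 fell (background 6.34%), Fntb, a farnesyltransferase subunit, at -1.06.

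The counts below are by the 2-fold rule. In the library labelled DKO over wild type the background of all genes tested was 12.3% risen and 6.34% fallen. In Itch KO over wild type it was 4.89% risen and 0.846% fallen, and in WWP2 KO over wild type 0.282% and 0.161%. Of 16 tested genes of cholesterol trafficking and esterification, 4 rose at least 2-fold in the library labelled DKO over wild type and 0 fell. Soat1, which esterifies cholesterol for storage, had a log2 ratio of 1.94, and Nceh1, which hydrolyses the esters, 1.33. The other 2 were Lrp8, a lipoprotein receptor, at 2.22 and Osbpl3, an oxysterol binding protein homologue, at 1.21. In Itch KO over wild type 2 rose, Lrp8 at 1.17 and Osbpl3 at 1.07, and 0 fell. The lowest there was Lipa, at -0.65, and 4 of the 16 lay below 0. In the library labelled DKO over wild type 7 of the 16 lay below 0, the lowest at -0.59.

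Of 9 further LXR target and efflux genes, 4 rose in the library labelled DKO over wild type and 0 fell. The list did not move as 1 set: 3 of the 9 had a log2 ratio below 0. The counting interval lay above 1 for 6 (background 37.3%) and below 1 for 2 (background 40.6%). Arl4c, a small GTPase gene induced by LXRs, had a log2 ratio of 3.70 there and 1.42 in Itch KO. Abca2, a transporter of the ABC family, stood at 1.91 and Rxra, the partner receptor of LXRs, at 1.10. Pltp, the phospholipid transfer protein, had 242 reads in the library labelled DKO, 20 in Itch KO, and 0 in both WWP2 KO and wild type, so it passed the filter on low counts through the library in which it was high. Pltp and Arl4c were the 2 called in Itch KO. The lowest there was Abca7, at -0.83, and 4 of the 9 lay below 0.

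Among 16 tested genes of fatty acid synthesis, activation and acetyl-CoA supply outside the 37, 0 rose and 0 fell by the 2-fold rule in the library labelled DKO over wild type. The extremes were Mecr, a mitochondrial reductase, at -0.95 and Acss1, a mitochondrial acetyl-CoA synthetase, at 0.69. Of 23 genes of fatty acid oxidation, 6 rose and 0 fell there. A log2 ratio below 0 was found for 6 of the 23, with the lowest at -0.89. Cpt1a, the gate for entry of fatty acids into mitochondria, had a log2 ratio of 2.0, Hadh 2.08, Acadl 1.4 and Acads 1.11. Pparg, a lipid-sensing nuclear receptor, stood at 3.89 there and at 2.54 in Itch KO over wild type. It had 252 reads in the library labelled DKO and 91 in Itch KO, against 14 in wild type, so it passed the filter on low counts through the libraries in which it was high.

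Of 16 glycerolipid genes 4 rose and 0 fell in the library labelled DKO over wild type. There 6 of the 16 had a log2 ratio below 0, the lowest at -0.96. Dgat1, which makes triglyceride, was at 1.94, Plin3, a lipid droplet coat protein, at 1.99, Agpat4, an acyltransferase, at 1.87 and Mgll, a monoglyceride lipase, at 1.68. In Itch KO over wild type 1 rose, Agpat4 at 1.55, and 0 fell, with Lpin1 the lowest at -0.76. In WWP2 KO over wild type 0 genes of these 7 lists passed the rule in either direction.

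**Figure D5:**
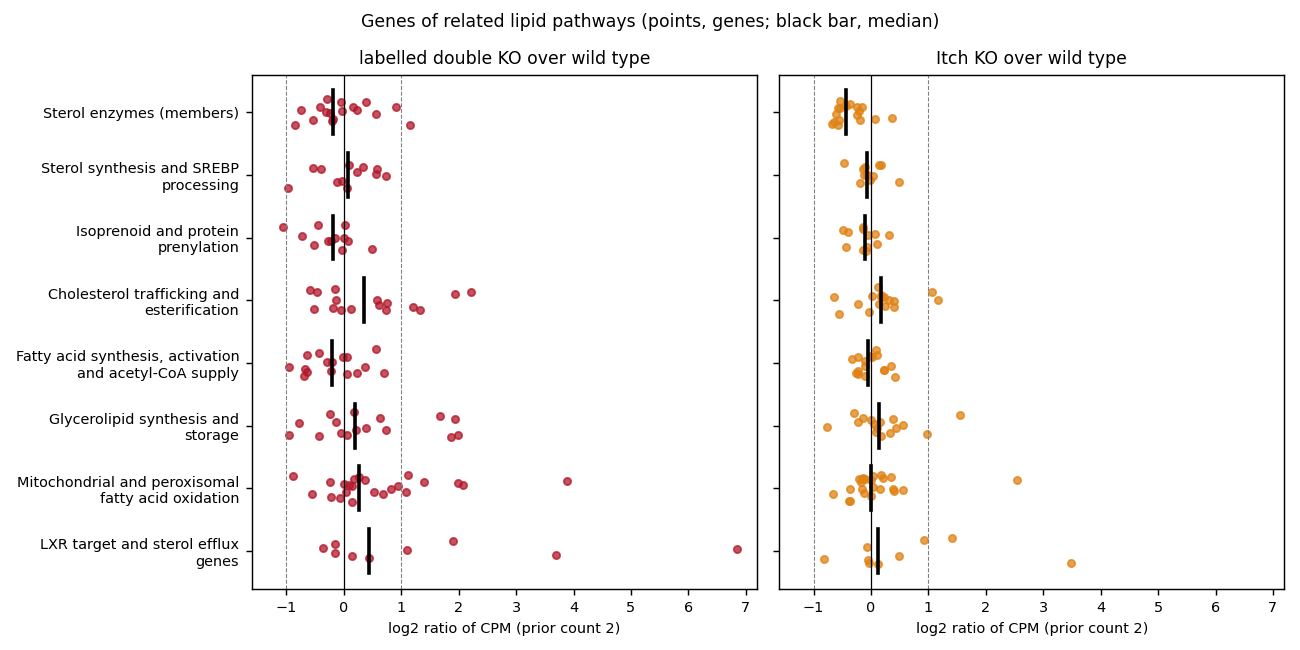
Log2 ratio of CPM to wild type (x axis, prior count 2) for the genes of the related lists, 1 row per list, in the library labelled DKO and Itch KO; each point is 1 gene and the black bar the median. The LXR row reaches 6.85 (Pltp) in the library labelled DKO and 3.48 (Pltp) in Itch KO.

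Many proliferation genes moved with the same libraries, but not all did. Of 15 listed, 11 rose by at least 2-fold in the library labelled DKO over wild type (background 12.3%), with a median log2 ratio of 3.43. In Itch KO 10 rose (background 4.89%), with a median of 2.02. Of the 11, 4 were under 2 CPM in wild type and passed the filter on low counts through the libraries in which they were high. In WWP2 KO 0 passed (background 0.282% higher and 0.161% lower), with a median of -0.05. Mcm5, Mcm2 and Mcm3 had folds of 1.03 (0.957 to 1.11), 1.05 (0.985 to 1.13) and 1.06 (0.994 to 1.13) in Itch KO over wild type. In the library labelled DKO over wild type 2 of the 15 lay below 0, and the counting interval lay below 1 for 1 (background 40.6%). Mki67 had 4123 reads in the library labelled DKO, 1413 in Itch KO and 243 in WWP2 KO, against 289 in wild type. Their part in the lipid gene results was not tested.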

How the data were processed

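RNA sequencing read counts per gene, raw and without normalization, were deposited by the authors in 1 table of 21937 genes by 4 libraries. The submitters' processing notes name Bowtie 1.0.0, TopHat 1.4.1, HTSeq 0.7.1 and build mm9; the sources used here do not give annotation or strand setting, and the table gives no coordinates. From the deposited counts, TMM factors (trimmed mean of M values) came from edgeR 4.0.16 in R 4.3.3 and lay between 0.983 (Itch KO) and 1.03 (the library labelled DKO). Ratios on the log2 scale used a prior count of 2, which draws low counts towards 0; folds used none. Genes averaging at least 2 CPM (9926) were tested by size, at 2-fold, at 1.5-fold and by the counting interval. Fold intervals (exact conditional binomial) and level intervals (Poisson) are at 95% and cover counting error only, with no spread between replicates. Reads that carry no molecular identifier may be copies of the same molecule, so the intervals may be too narrow even for that. Levels per kilobase used GENCODE M21 exons and promoters RefSeq GRCm38.p6. Every member is named, and of other lists up to 3 highest and 3 lowest genes per comparison; Mgll, Rxra, Acadl, Acads and Mki67 were chosen after their values were seen. A few genes of these lists are not reported here. Members and lists were chosen with earlier results of these data known. Alternatives were DESeq2 1.42.0 size factors, total counts, other filters, a prior count of 0.5, and scaling without the library labelled DKO. Other steps ran in Python 3.11.15 with scipy 1.17.1, pandas 2.3.3, numpy 2.4.6 and, for plots, matplotlib 3.10.9.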

Additional observations from a re-analysis of the deposited data

Results flagged for a closer look

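In all, 6 of the 34 genes had ratios of opposite direction in the pairs that share no library, the library labelled DKO over WWP2 KO and Itch KO over wild type, with both counting intervals excluding 1. This is 17.6% of the 34, against 11.0% of all 9926 genes tested (1089 genes). With 1 library per genotype the difference was not tested for any of them. The desaturase gene Scd2 had a log2 ratio of 2.48 in the first pair and -0.26 in the second, a difference of 2.74. Among the sterol enzymes, Dhcr7 had 0.23 and -0.68, a difference of 0.91. Acat2 had 0.27 and -0.54, a difference of 0.81, and Lss 0.39 and -0.25, a difference of 0.64. The signs were reversed for a pair of the 3 fatty acid synthesis genes, with Fasn at -0.74 and 0.22, a difference of -0.96, and Acly at -0.29 and 0.12, a difference of -0.41, while Acaca was lower in both, at -0.86 and -0.14.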

How the results depend on the processing

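With 1 library per genotype no library could be left out within a comparison, and depth limits Tm7sf2, Abca1, Abcg1, Scd1 and Fads2 most. Counts of genes past the 2-fold and 1.5-fold rules changed by more than 1.5 times in the cases below. With DESeq2 size factors 1 gene was at least 2-fold lower in the library labelled DKO than in wild type (Acaca, at -1.0) and 1 than in Itch KO (Fasn, at -1.0), against 0 for each by TMM. Without a filter on low counts Scd1 was called, so 1 gene was 2-fold higher in Itch KO than in wild type and 1 lower in the library labelled DKO than in Itch KO. With a mean of at least 10 CPM 2 genes were 2-fold higher in the library labelled DKO than in wild type, and 2 than in WWP2 KO, since Abca1, Abcg1 and Pmvk fall under that filter. The 1.5-fold rule was varied after seeing the data. Its counts were 2 higher in Itch KO without a filter; 1 lower in Itch KO and 4 higher in the library labelled DKO at 10 CPM; and 0 higher in WWP2 KO with DESeq2 factors or at 10 CPM, all against wild type. Of 120 recomputed medians 118 stayed close and 2 moved, both of fatty acid synthesis, and of 555 recomputed ratios of single genes 540 stayed close, 13 moved, 2 passed the threshold and 0 reversed while called. Total-count scaling moved the median of all genes by up to 0.07 and gave the 34 genes a median of 0.04 in the library labelled DKO over wild type, against -0.03 by TMM.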
